A study of Mus musculus with 258 samples.

Results

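The large Maf factors described here are Mafa and Maf (also called c-Maf), picked by gene symbol from the bulk and single-cell read count tables. They are 2 of 40824 genes in each table. Both encode transcription factors of the basic leucine zipper type that bind DNA as dimers and carry an activation domain, which the small Maf proteins lack. Both belong to the large Maf family. In the pancreas MafA is known as an activator of the insulin genes and of other genes of the mature beta cell. c-Maf is known as a regulator of the glucagon gene and, outside the endocrine pancreas, as a factor of the lens, of T cells and of tissue macrophages.

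The samples follow endocrine commitment in the mouse embryo and the role in it of the histone demethylase Jmjd3 (gene Kdm6b). Bulk RNA came from 3 sorted groups of 2 libraries each, namely Ngn3-low and Ngn3-high cells of the E13.5 dorsal pancreas, separated by a green fluorescent reporter of Ngn3 (gene Neurog3), and Ins1-RFP positive cells of the E17.5 pancreas, sorted by a red reporter of the insulin gene Ins1. Single cells came from the E13.5 dorsal pancreas, with 44 Ngn3-high cells and 69 Ngn3-low cells that carried Pdx1-Cre and Jmjd3 fl/fl ("deleted" below), and 59 Ngn3-high cells and 49 Ngn3-low cells labelled WT. Pdx1-Cre acts in the pancreatic epithelium. No Cre is named for WT cells, which leaves the deletion and the presence of Cre as 2 differences that cannot be told apart. No other allele is named for any group. Ins1-RFP positive cells differ from both other bulk groups in embryonic day, in reporter and in the part of the pancreas named. In every comparison with them these differences cannot be told apart from each other or from cell type. Whether libraries or cells came from separate animals is not labelled, and a p-value from the bulk data therefore speaks of library-to-library spread only, which may be technical.

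Bulk libraries held 11957415 to 17760214 reads in genes and single cells 380478 to 1949839, with a median of 708409. Levels are given in CPM, the reads of a gene per 1000000 reads in all genes without the spike-in rows, and bulk CPM were also scaled by a trimmed-mean factor per library. Epithelial markers summed to 1949 to 2456 CPM in all 6 bulk libraries. Markers of other cell types differed between groups and libraries. The 16 macrophage markers summed to 5060 and 4172 CPM in the Ngn3-low libraries, to 23.8 and 9.23 CPM in the Ngn3-high libraries and to 99.7 and 176 CPM in the Ins1-RFP positive libraries. The acinar markers summed to 22427 CPM in the second Ins1-RFP positive library and to 1408 CPM in the first. In the single cells Kdm6b, the targeted gene, stood at 107 CPM in deleted and 265 CPM in WT Ngn3-high cells, and at 55.5 CPM in deleted and 131 CPM in WT Ngn3-low cells. Whether the counted exons include the deleted ones is not labelled.

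Mafa lies on chromosome 15 (chr15:75745501-75748321, GRCm38) and Maf on chromosome 8 (chr8:115703253-115706894), and the RefSeq gene table lists 0 genes that overlap either one. The deposited table gives Mafa a length of 1080 bases, against 2821 bases between its RefSeq ends, and gives Maf 6360 bases against 3642. Levels were compared between genes only per length of the table's own gene models.

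The promoters of a pair of genes known as MafA targets are shown, because these genes are read beside Mafa below. Ins1 is the insulin gene by which the oldest cells were sorted, and Glp1r, which encodes the receptor for the incretin hormone GLP-1, was the gene whose bulk pattern lay nearest to that of Mafa. The sequences are those of RefSeq (GRCm38.p6, 250 bases before to 50 bases after the annotated start, plus strand, 5′ to 3′), and capitals mark matches on either strand to the letters TGC and TCAGC with any 4 bases between them, used here for a Maf recognition element.
Ins1, chr19:52264047-52264346: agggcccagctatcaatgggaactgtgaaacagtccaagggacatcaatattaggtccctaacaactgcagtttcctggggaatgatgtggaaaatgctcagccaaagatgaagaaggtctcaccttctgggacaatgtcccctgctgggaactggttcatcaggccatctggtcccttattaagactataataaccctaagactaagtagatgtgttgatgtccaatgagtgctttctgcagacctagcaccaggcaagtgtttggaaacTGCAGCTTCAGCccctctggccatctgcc
Glp1r, chr17:30901617-30901916: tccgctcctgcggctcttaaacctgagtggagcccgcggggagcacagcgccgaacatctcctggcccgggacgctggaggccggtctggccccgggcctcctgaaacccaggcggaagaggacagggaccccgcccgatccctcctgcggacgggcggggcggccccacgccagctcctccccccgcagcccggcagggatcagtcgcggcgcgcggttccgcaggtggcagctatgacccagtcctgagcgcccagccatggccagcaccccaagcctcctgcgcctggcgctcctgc
The match in Ins1 began 21 bases after the annotated start and lay on the plus strand, counted from the start in the RefSeq table, which need not be the only start of a gene. The Glp1r window held none. Of the 9 listed MafA targets, 7 had a promoter entry and 1 of these genes held a match, while 428 of all 32851 promoter windows (1.30%) held one. A match of letters is a description and not a measured binding site, and a window without a match says only that these letters are not in it.

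Mafa was close to absent in Ngn3-low cells, low in Ngn3-high cells and clearly present in Ins1-RFP positive cells, while Maf had the opposite order between the first and the other groups. Mafa had 4 and 2 reads in the Ngn3-low libraries, 17 and 59 reads in the Ngn3-high libraries, and 1411 and 1544 reads in the Ins1-RFP positive libraries. Normalised, the Ngn3-low libraries had 0.22 and 0.15 CPM, the Ngn3-high libraries 1.01 and 4.91 CPM and the Ins1-RFP positive libraries 94.7 and 121 CPM. Both Ins1-RFP positive libraries stood far above the 4 libraries of E13.5 cells. The second Ngn3-low library, with its 2 reads, lay below the level that 3 reads give there, 0.229 CPM.

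**Figure D1:**
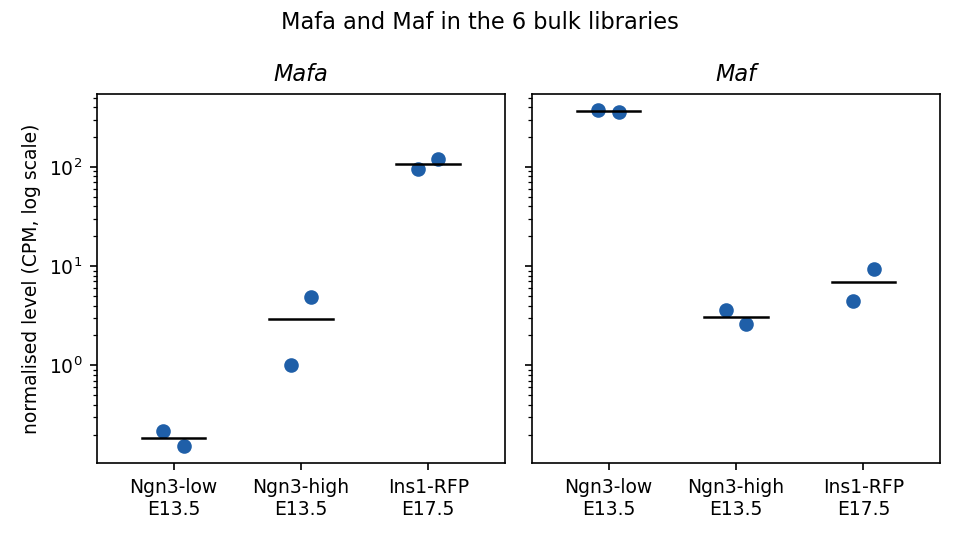
Levels of Mafa and Maf in CPM on a log scale in the 6 bulk libraries, with 1 point per library and a line at the mean of the 2 libraries of each group. Mafa stood highest in Ins1-RFP positive cells, at a mean of 108 CPM, and Maf in Ngn3-low cells, at 365 CPM.

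Mafa averaged 2.96 ± 2.75 CPM in Ngn3-high and 0.184 ± 0.0445 CPM in Ngn3-low cells (SD, n = 2 each). The log2 fold change from edgeR was 3.81 (SE 0.914, adjusted p = 0.00705), and 27.7% of the 15684 genes tested were called higher in this comparison. Its size rested on the Ngn3-high libraries, being 2.38 without the second of them and 4.62 without the first, and it passed the threshold of 0.05 in both cases. Ins1-RFP positive cells averaged 108 ± 18.5 CPM of Mafa, against 2.96 ± 2.75 CPM in Ngn3-high cells (SD, n = 2 each). This log2 fold change was 5.28 (SE 0.480, edgeR adjusted p = 6.41e-05), with 26.1% of genes called higher, and it was 4.47 without the first and 6.71 without the second Ngn3-high library. Against Ngn3-low cells the log2 fold change of Mafa in Ins1-RFP positive cells was 9.09 (SE 0.668, edgeR adjusted p = 7.44e-06), with 30.4% of genes called higher. The 3 comparisons share libraries and are not independent of each other, and the median log2 fold change of all genes tested was -0.01, 0.01 and -0.08 in the order given. With total counts in place of the trimmed-mean factors the last of these medians was -0.24. Markers of other cell types were also higher in Ins1-RFP positive than in Ngn3-high cells, with 7 of 7 acinar, 8 of 8 mesenchyme and 8 of 8 endothelial markers tested, and their part in the rise of Mafa was not tested. Without the second Ins1-RFP positive library, which held most of the acinar and mesenchyme RNA, the log2 fold change of Mafa relative to Ngn3-high cells was 5.11.

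Maf had 6901 and 4712 reads in the Ngn3-low libraries, 60 and 31 reads in the Ngn3-high libraries, and 67 and 119 reads in the Ins1-RFP positive libraries. Normalised, the Ngn3-low libraries had 372 and 359 CPM, the Ngn3-high libraries 3.58 and 2.58 CPM and the Ins1-RFP positive libraries 4.50 and 9.32 CPM. Both Ngn3-low libraries stood far above the other 4, and the 2 remaining groups lay close together.

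Maf averaged 3.08 ± 0.71 CPM in Ngn3-high and 365 ± 8.90 CPM in Ngn3-low cells (SD, n = 2 each), and fell by 6.86 on the log2 scale (SE 0.311, edgeR adjusted p = 7.47e-07). In this comparison 30.2% of genes were called lower. In Ins1-RFP positive cells Maf averaged 6.91 ± 3.41 CPM (SD, n = 2), and relative to Ngn3-low cells it fell by 5.74 on the log2 scale (SE 0.287, edgeR adjusted p = 1.03e-06), with 35.5% of genes called lower. Without the second Ins1-RFP positive library Maf fell by 6.33 on that scale. Relative to Ngn3-high cells the log2 fold change of Maf in Ins1-RFP positive cells was 1.12 (SE 0.330, edgeR adjusted p = 0.0217). That call was lost without the second Ins1-RFP positive library, where the log2 fold change was 0.52 (edgeR adjusted p = 0.130). It was also lost without the first Ngn3-high library (1.41, edgeR adjusted p = 0.0590) and without the second (0.92, edgeR adjusted p = 0.122). In the order of Maf levels Ngn3-low cells thus came first, with Ins1-RFP positive and Ngn3-high cells not separated in a way that held without each library.

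In bulk samples fewer cells of a type and less RNA per cell cannot be told apart. The median change of the macrophage markers had the direction of Maf in every bulk comparison. For Ins1-RFP positive against Ngn3-high cells the call of Maf did not hold without each library. All 16 macrophage markers were lower in Ngn3-high than in Ngn3-low cells, with a median log2 fold change of -9.20, beside 30.2% of all genes called lower. Csf1r, the receptor of the macrophage growth factor, had 2.75 and 0.75 CPM in Ngn3-high and 1014 and 825 CPM in Ngn3-low libraries. Adgre1, which encodes the macrophage surface protein F4/80, had 0.54 and 0.17 CPM in Ngn3-high and 257 and 203 CPM in Ngn3-low libraries. Both markers were far lower in the Ngn3-high libraries, as Maf was. Ptprc, the common leukocyte antigen CD45, had 0.18 and 0.08 CPM in Ngn3-high and 123 and 114 CPM in Ngn3-low libraries. Cd163, a scavenger receptor of tissue macrophages, had 0 reads in both Ngn3-high libraries and 317 and 160 reads in the Ngn3-low libraries.

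Relative to Ngn3-high cells, Ins1-RFP positive cells had 15 of 16 macrophage markers higher and 1 not past the test, with a median log2 fold change of 3.76, beside 26.1% of all genes called higher. Relative to Ngn3-low cells all 16 were lower, with a median of -5.39, beside 35.5% of all genes called lower. Set against the markers of the same library, Maf amounted to 7.34 and 8.61 CPM per 100 CPM of the macrophage sum in Ngn3-low libraries. The same quantity was 15.1 and 27.9 in Ngn3-high and 4.51 and 5.31 in Ins1-RFP positive libraries. Between the Ins1-RFP positive libraries, Maf and the macrophage sum were both higher in the second. Endothelial markers followed a like course, with 8 of 8 lower in Ngn3-high cells than in Ngn3-low cells beside the same 30.2% of all genes, and summed to 8.41 and 5.49 CPM in Ngn3-high and 360 and 384 CPM in Ngn3-low libraries. Mesenchyme markers summed to 64.7 and 97.6 CPM in Ngn3-high and 179 and 118 CPM in Ngn3-low libraries. The part of these cell types in the bulk level of Maf was not tested in the bulk libraries themselves.

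**Figure D2:**
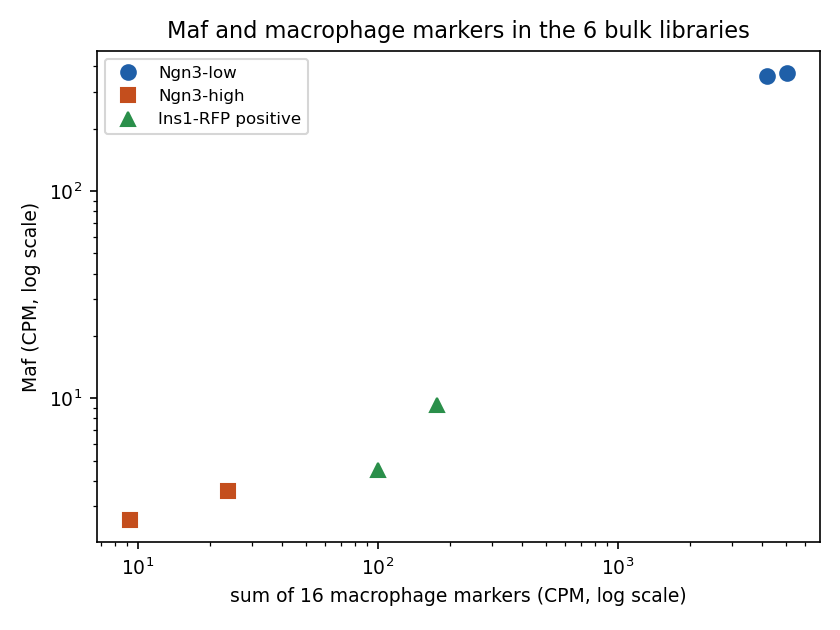
Level of Maf against the sum of the 16 macrophage markers, both in CPM on log scales, with 1 point for each of the 6 bulk libraries and a symbol per group. Both Ngn3-low libraries lie at the upper right, at 372 and 359 CPM of Maf and macrophage sums of 5060 and 4172 CPM, and the other 4 libraries have less than 10 CPM of Maf.

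The genes whose bulk pattern was most like each factor were taken by the smallest root mean square difference of log2(CPM + 1), centred on the mean over the 6 libraries, among 11629 genes with at least 10 CPM in their highest library. For Maf the nearest were Myo1f, a myosin of immune cells, at a difference of 0.141, C3ar1, the receptor of complement fragment C3a, at 0.160, Abca9 at 0.181, Pld4 at 0.182 and Hcls1, a signalling protein of blood cells, at 0.217. For Myo1f the Ngn3-low libraries had 98.4 and 84.9 CPM, the Ngn3-high libraries 0.06 and 0 CPM and the Ins1-RFP positive libraries 0.67 and 1.49 CPM. For Mafa the nearest were Glp1r at 0.403, the neuropeptide gene Npy at 0.431, Sytl4, which encodes the granule docking protein granuphilin, at 0.436, the extracellular matrix gene Tnr at 0.440 and Syndig1l at 0.449. For Glp1r the Ngn3-low libraries had 0.22 and 0 CPM, the Ngn3-high libraries 1.79 and 2.58 CPM and the Ins1-RFP positive libraries 85.2 and 76.2 CPM. The points of each pattern are the same 6 libraries in 3 groups, so likeness over them is a description.

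Compared per gene length, Maf stood above Mafa in Ngn3-low cells, and Mafa above Maf in Ngn3-high and Ins1-RFP positive cells. In the authors' deposited table of pooled RPKM, which scale reads by gene length and library size, Mafa stood at 0.17, 2.44 and 100.57 in Ngn3-low, Ngn3-high and Ins1-RFP positive cells. In the same authors' deposited table Maf stood at 56.74, 0.5 and 1.07 RPKM in those 3 groups.

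Computed from the counts of each library, Mafa had 0.209 and 0.151 RPKM in Ngn3-low, 0.934 and 4.57 RPKM in Ngn3-high, and 82.1 and 107 RPKM in Ins1-RFP positive libraries. Maf had 61.1 and 60.6 RPKM in Ngn3-low, 0.560 and 0.408 RPKM in Ngn3-high, and 0.662 and 1.40 RPKM in Ins1-RFP positive libraries. The order of the 2 genes was the same in both libraries of each group. Nrl, a large Maf factor of rod photoreceptors, had 0 and 0 reads in Ngn3-low, 15 and 0 in Ngn3-high, and 4 and 4 in Ins1-RFP positive libraries, and did not pass the expression filter. A library without a read of Nrl allows a level of up to 0.249 CPM, the largest floor of 3 reads among the 6 libraries.

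The small Maf proteins, which lack an activation domain and pair with other leucine zipper factors, moved less. Mafg had 115 and 101 CPM in Ngn3-high and 72.3 and 75.3 CPM in Ngn3-low libraries, and rose by 0.55 on the log2 scale (SE 0.111, edgeR adjusted p = 0.00301). The Ins1-RFP positive libraries had 238 and 216 CPM of it, higher than Ngn3-high cells by 1.07 on the log2 scale (SE 0.111, edgeR adjusted p = 0.000128). A second gene, Gm17586, overlaps Mafg in the RefSeq table, and reads of both genes cannot be told apart here. Mafk had 34.4 and 22.5 CPM in Ngn3-high and 55.4 and 57.5 CPM in Ngn3-low libraries, and fell by 0.98 on the log2 scale (SE 0.209, edgeR adjusted p = 0.00380). In Ins1-RFP positive cells Mafk did not pass the test relative to Ngn3-high cells (log2 fold change 0.48), though it passed in 4 of 12 alternatives, nor relative to Ngn3-low cells (-0.50), though it passed in 7 of 12. Maff did not pass in any of the 3 comparisons (0.28, 0.03 and 0.31). The second of these values of Maff was -0.05 with total counts, and without the second Ins1-RFP positive library the third was 0.65 and passed (edgeR adjusted p = 0.00892).

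The CNC and Bach proteins are the partners with which small Maf proteins bind DNA, among them the oxidative stress factor Nfe2l2 and the repressors Bach1 and Bach2. In Ngn3-high against Ngn3-low cells 2 of the 6 genes rose and 4 fell, with 57.9% of all genes called in either direction. Nfe2l1 rose by 0.74 (SE 0.121, edgeR adjusted p = 0.00094) and Bach2 by 0.90 (SE 0.189, edgeR adjusted p = 0.00367) on the log2 scale. Nfe2, a factor of red cell and platelet precursors, had 7 and 3 reads in Ngn3-high and 94 and 52 reads in Ngn3-low libraries (log2 fold change -3.69). Nfe2l2 fell by 0.97, Nfe2l3 by 1.44 and Bach1 by 0.40 on the log2 scale, the last of these not passing without the first Ngn3-low or the second Ngn3-high library. In Ins1-RFP positive relative to Ngn3-high cells Nfe2l3 fell by 1.19 and Bach1 by 0.48 on the log2 scale, Bach1 not passing without the second Ins1-RFP positive library, and the other 4 did not pass, with 50.9% of all genes called in either direction.

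Genes known as targets of MafA were read in the same comparisons, from a list of 9. Relative to Ngn3-high cells all 9 rose in Ins1-RFP positive cells, with a median log2 fold change of 5.91 beside 0.01 for all genes tested, and 26.1% of all genes were called higher. Prlr, the prolactin receptor, had 67.7 and 57.1 CPM in Ins1-RFP positive and 0.24 and 0.08 CPM in Ngn3-high libraries. Slc30a8, the zinc transporter of insulin granules, had 1017 and 830 CPM in Ins1-RFP positive and 7.52 and 11.9 CPM in Ngn3-high libraries, a log2 fold change of 6.59 (SE 0.266, edgeR adjusted p = 1.99e-06). Ins1 had 34853 and 23696 CPM in Ins1-RFP positive and 90.8 and 86.4 CPM in Ngn3-high libraries, and Ins2 had 61407 and 39458 CPM against 183 and 137 CPM. The rise of Ins1 checks the sort only, since its reporter chose the cells.

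In Ngn3-high against Ngn3-low cells 5 of the 9 targets rose, 2 fell and 2 did not pass, with a median log2 fold change of 1.82 beside -0.01 for all genes. Of all genes tested, 27.7% were called higher and 30.2% lower in this comparison, so the share of targets that fell was near that of all genes. Pcsk1, a prohormone convertase, had 339 and 385 CPM in Ngn3-high and 7.11 and 4.72 CPM in Ngn3-low libraries, and rose by 5.92 on the log2 scale (SE 0.243, edgeR adjusted p = 5.5e-07). Glp1r rose by 4.01 (SE 0.560, edgeR adjusted p = 0.000378), Slc30a8 by 3.21 (SE 0.319, edgeR adjusted p = 5.05e-05) and G6pc2, a glucose-6-phosphatase of islets, by 2.99 (SE 0.346, edgeR adjusted p = 0.000124). Without the first Ngn3-low library the log2 fold change was 7.91 for Glp1r, whose Ngn3-low cells then had no read left so that the value depends on the fit's prior count, and 3.86 for G6pc2, and without the second it was 3.27 for Glp1r. The fifth rise was that of Pcx, the enzyme pyruvate carboxylase, by 0.43, which did not pass without either Ngn3-low library. The falls, named after their values were seen, were those of Slc2a2, the glucose transporter GLUT2, with 18.1 and 28.4 CPM in Ngn3-high and 122 and 108 CPM in Ngn3-low libraries, and of Prlr, with 4 and 1 reads in Ngn3-high and 10 and 18 reads in Ngn3-low libraries. The call of Prlr was lost without the second Ngn3-low or the second Ngn3-high library.

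Ins1 and Ins2 did not pass, and the Ngn3-low libraries differed widely, with 46.6 and 2.82 CPM of Ins1, against 90.8 and 86.4 CPM in Ngn3-high libraries. Without the first Ngn3-low library the log2 fold change of Ins1 was 4.98 (edgeR adjusted p = 1.44e-05) and that of Ins2 4.45 (edgeR adjusted p = 4.18e-05). Insulin RNA in the Ngn3-low gate was therefore largely a feature of 1 library, whereas its Mafa reads numbered 4. Relative to Ngn3-low cells all 9 targets rose in Ins1-RFP positive cells, with a median log2 fold change of 8.90, beside 30.4% of all genes called higher.

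**Figure D3:**
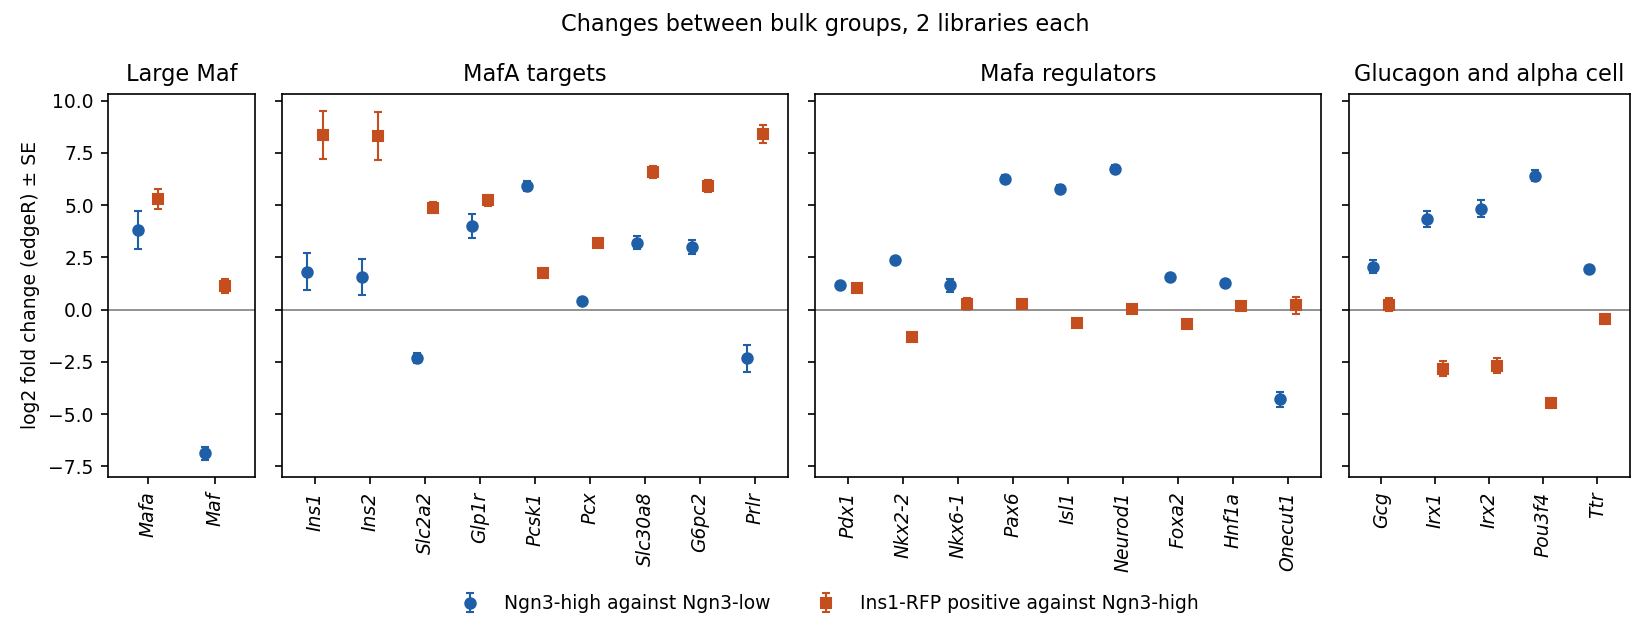
Log2 fold changes from edgeR with their standard errors for 2 large Maf genes, 9 listed MafA targets, 9 listed regulators of Mafa and 5 genes of glucagon and alpha cells. Circles compare Ngn3-high with Ngn3-low cells and squares compare Ins1-RFP positive with Ngn3-high cells, 2 libraries per group. All 9 targets lie above 0 as squares, while 8 of the 9 regulators lie above 0 as circles.

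Factors known to act on the Mafa gene were mostly higher in Ngn3-high than in Ngn3-low cells, as Mafa itself was. Both groups are of E13.5, so an order in time between these factors and Mafa cannot be read here and was not tested. Of 9 such regulators, 8 rose and 1 fell in Ngn3-high against Ngn3-low cells, with a median log2 fold change of 1.57, beside 27.7% of all genes called higher and 30.2% lower. Neurod1 had 256 and 329 CPM in Ngn3-high and 2.85 and 2.59 CPM in Ngn3-low libraries, Pax6 had 441 and 495 CPM against 6.30 and 5.79 CPM, and Isl1 had 378 and 411 CPM against 8.18 and 6.09 CPM. The one fall was that of Onecut1, a factor known in mice to hold back beta cell maturation, with 35 and 49 reads in Ngn3-high and 1009 and 840 reads in Ngn3-low libraries. The rise of Nkx6-1, by 1.16, did not pass without the first Ngn3-low or the second Ngn3-high library. Relative to Ngn3-high cells 1 regulator rose in Ins1-RFP positive cells, 3 fell and 5 did not pass, with a median of 0.16. Of all genes 26.1% were called higher and 24.9% lower there, so the regulators that rose were below and those that fell near the general share. The rise was that of Pdx1, the master regulator of pancreas and beta cells, with 540 and 478 CPM in Ins1-RFP positive and 212 and 279 CPM in Ngn3-high libraries, a log2 fold change of 1.05 (SE 0.152, edgeR adjusted p = 0.000718). Nkx2-2 fell by 1.29, Foxa2 by 0.69 and Isl1 by 0.65 on the log2 scale. In Ins1-RFP positive against Ngn3-low cells 8 regulators were higher and Onecut1 was lower, beside 30.4% and 35.5% of all genes.

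The glucagon gene, on which c-Maf is known to act, and other genes of alpha cells were all higher in Ngn3-high than in Ngn3-low cells, 5 of 5, with a median log2 fold change of 4.35, beside 27.7% of all genes called higher. Pou3f4, a transcription factor of alpha cells, had 218 and 214 CPM in Ngn3-high and 2.96 and 1.98 CPM in Ngn3-low libraries. In Ins1-RFP positive cells 4 of 5 then fell relative to Ngn3-high cells, with 24.9% of all genes called lower. With 7.32 and 12.5 CPM in the Ins1-RFP positive libraries, Pou3f4 fell by 4.45 on the log2 scale (SE 0.238, edgeR adjusted p = 6.29e-06). Irx1 fell by 2.83 and Irx2 by 2.68 on the log2 scale, or by 3.57 and 3.49 without the second Ins1-RFP positive library. The fourth was Ttr, the thyroid hormone carrier transthyretin, which fell by 0.45 and did not pass without the second Ngn3-high or the first Ins1-RFP positive library. Gcg, the glucagon gene, did not pass, with 774 and 1602 CPM in Ins1-RFP positive and 872 and 1151 CPM in Ngn3-high libraries. Its log2 fold change was 0.66 and passed without the first Ins1-RFP positive library (edgeR adjusted p = 0.0146), and was -0.38 without the second. In the Ngn3-low libraries, where Maf was highest, Gcg had 248 and 240 CPM. Glucagon RNA was thus lowest in the group with the most Maf, where macrophage markers were also highest. Whether Maf and Gcg RNA lay in the same cells of the bulk libraries was not tested, nor was any action of c-Maf on Gcg.

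The single cells were used to read Maf and Mafa beside the marker genes of the same cell. Each single-cell group is 1 sample, so no test was made, and intervals cover counting error only. Mafa had 0 reads in every one of the 221 cells. The table's length for Mafa is shorter than its RefSeq span, and whether reads in its untranslated parts were counted is not given, so their part in this 0 was not tested. Taking 3 counts as the most that a count of 0 allows, 0 reads over the 103 Ngn3-high cells together allow a level of up to 0.0396 CPM, and over the 118 Ngn3-low cells up to 0.0355 CPM. By the same 3 counts, 0 of 103 Ngn3-high cells allow a share of up to 2.91% with a read, and the upper bound of the 95% Clopper-Pearson interval is 3.52%. The bulk Ngn3-high libraries had 1.01 and 4.91 CPM of Mafa, above the 0.0396 CPM that the pooled single-cell reads allow. That bound takes reads as spread over all Ngn3-high cells, deleted ones included, and covers counting error only. It does not cover Mafa confined to a small share of cells, which was not tested. Of 2537 genes with 1 to 5 CPM in bulk Ngn3-high cells, 112 (4.41%) had no read in any Ngn3-high single cell, and of the 833 among them with a table length of 500 to 2000 bases 28 (3.36%) had none. The bulk and single-cell tables were made with different library methods and normalised separately, and the part of the method in this gap was not tested.

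Insulin reads were measured in some of the same cells. Of the Ngn3-high cells, 13 had 10 CPM or more of Ins2, namely 9 of 44 deleted and 4 of 59 WT cells. All 13 also had 10 CPM or more of Neurod1, which was not set against its share in all Ngn3-high cells. A read of Maf was found in 3 of them, against 20 of all 103 Ngn3-high cells, and like all other single cells they had no read of Mafa. Ngn3-low cells were left out of this count. Among those with a read of Maf, a deleted cell with 16.2 CPM and a WT cell with 10.2 CPM of Ins2 passed the cut with 0 CPM of Neurod1. Among them 4 cells had 100 CPM or more of Ins2, with 1187, 973 and 507 CPM in 3 deleted cells and 344 CPM in 1 WT cell. These 3 deleted cells all carry the number 5 in their titles, whose meaning is not labelled. The split by genotype was not tested.

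**Figure D4:**
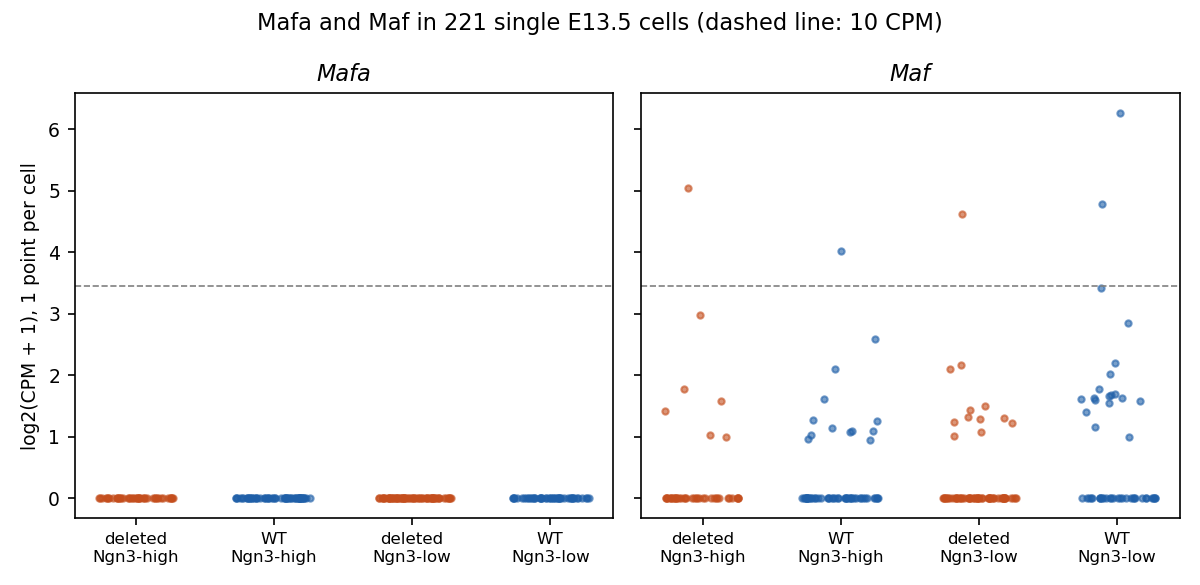
Levels of Mafa and Maf as log2(CPM + 1) in 221 single E13.5 cells, 1 point per cell, with deleted cells left of WT cells for the Ngn3-high and then the Ngn3-low gate, and a dashed line at 10 CPM. No cell has a read of Mafa, and 5 cells reach 10 CPM of Maf.

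Maf was rare in all 4 single-cell groups. Reads of Maf summed over cells numbered 39 in deleted and 23 in WT Ngn3-high cells, and 37 in deleted and 77 in WT Ngn3-low cells. As levels these were 1.21 CPM (95% Poisson interval 0.860 to 1.65) in deleted and 0.528 CPM (0.335 to 0.793) in WT Ngn3-high cells. In Ngn3-low cells they were 0.710 CPM (0.500 to 0.978) in deleted and 2.38 CPM (1.88 to 2.98) in WT cells. The summed level was thus higher in deleted than in WT cells of the Ngn3-high gate and lower in deleted than in WT cells of the Ngn3-low gate, and both differences rested on few cells.

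The cell with the most Maf reads held 26 of the 39 reads in deleted Ngn3-high cells and 7 of the 23 reads in WT Ngn3-high cells. In Ngn3-low cells it held 23 of 37 reads in deleted and 33 of 77 reads in WT cells. Without that cell of each group the level was 0.413 CPM in deleted and 0.371 CPM in WT Ngn3-high cells, and 0.274 CPM in deleted and 1.38 CPM in WT Ngn3-low cells. The cell titles also carry a number whose meaning the labels do not give. Ngn3-high cells of both genotypes carry the numbers 1, 5 and 6. Among those numbered 1 the level of Maf was 0.103 CPM in deleted and 0.383 CPM in WT cells, and among those numbered 5 it was 0.385 CPM in deleted and 1.00 CPM in WT cells. Among those numbered 6 it was 6.77 CPM in deleted and 0.497 CPM in WT cells, and these 6 deleted cells held 34 of the 39 reads. The higher sum of deleted Ngn3-high cells therefore came from number 6, and WT cells were higher in the other 2 numbers. Ngn3-low cells of both genotypes share the numbers 1, 2 and 5, with 1.91, 0.241 and 0.237 CPM in deleted and 1.76, 0.606 and 0.678 CPM in WT cells in that order. Cells numbered 4, found among WT Ngn3-low cells and in no other group, held 54 of the 77 reads there in 14 cells, and over the numbers that both genotypes share the WT Ngn3-low level was 1.07 CPM, against 0.710 CPM in deleted cells. Cells with at least 1 read of Maf numbered 7 of 44 deleted and 13 of 59 WT Ngn3-high cells, and 12 of 69 deleted and 19 of 49 WT Ngn3-low cells. Of these 51 cells, 35 had a single read.

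The epithelial adhesion gene Epcam had 10 CPM or more in all 51 cells with a read of Maf, as in 220 of all 221 cells, with 81.9, 780 and 1876 CPM as the lowest, median and highest value in the 51. Their 16 macrophage markers summed to 0, 1.13 and 188 CPM as the lowest, median and highest value, and 21 of the 51 had no read of any, against 116 of all 221 cells. Csf1r had a read in 6 of the 51, against 19 of all 221 cells, and Cd163 in 1, against 7. Ptprc had a read in 4 of the 51, against 6 of all 221 cells, and all 4 cells with a read of Adgre1 were among the 51. Reads in 8 or more of the 16 markers were found in 2 of the 51, against 3 of all 221 cells. The 5 cells with 10 CPM or more of Maf had 3.67 CPM of the macrophage sum at most, with a read of Adgre1 in 1 of the 5 and none of Csf1r, Ptprc or Cd163.

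The highest of them was a WT Ngn3-low cell with 76.0 CPM of Maf, 1539 CPM of Epcam, 1092 CPM of the progenitor factor Sox9 and 1156 CPM of Cpa1, a pancreatic carboxypeptidase. The next was a deleted Ngn3-high cell with 31.8 CPM of Maf and 4758 CPM of Neurog3, and also 492 CPM of Sox9 and 1014 CPM of Cpa1. The others were a WT Ngn3-low cell with 26.6 CPM, a deleted Ngn3-low cell with 23.7 CPM and a WT Ngn3-high cell with 15.3 CPM of Maf. These 5 cells came from all 4 groups and had neither a genotype nor a gate in common. Over the 118 Ngn3-low cells the genes most like Maf in rank were Ppp2r2c, with a Spearman correlation of 0.389, 5830416P10Rik at 0.372, Nrros at 0.347, Sepw1 at 0.344 and Osbp at 0.342, among 14149 genes. With 31 of these cells holding any read of Maf, such values carry little information.

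The level of Maf in bulk Ngn3-low cells was not found again in single Ngn3-low cells. Maf averaged 365 CPM in the bulk libraries and 2.38 CPM in WT Ngn3-low single cells, a 153-fold gap. Of 2308 genes with 100 CPM or more in bulk Ngn3-low cells, 50 (2.17%) were at least 50-fold lower in WT Ngn3-low single cells, and Maf held place 30 in the order from the widest gap on the log2(CPM + 1) scale. Of the 16 macrophage markers 9 had 100 CPM or more in bulk, and 9 of these 9 were among the 50. The macrophage sum was 4616 CPM in bulk and 11.4 CPM in WT single cells, and the defining markers Csf1r and Adgre1 stood at 919 and 230 CPM in bulk and at 1.02 and 0.247 CPM in WT single cells. Other cell types showed such gaps as well. Endothelial markers summed to 372 CPM in bulk and 3.71 CPM in WT single cells, with Kdr, a receptor of vascular endothelial growth factor, at 88.4 and 0.0619 CPM. Neural crest markers summed to 232 CPM in bulk and 11.5 CPM in WT single cells, and the 1 of them with 100 CPM or more in bulk was among the 50. Epcam stood at 408 CPM in bulk and 978 CPM in WT single cells. In Ngn3-high cells Maf averaged 3.08 CPM in bulk and 0.528 CPM in WT single cells, and 9 of 2568 genes (0.350%) with 100 CPM or more in bulk were at least 50-fold lower in WT single cells. Maf in bulk Ngn3-low cells was therefore measured together with macrophage and endothelial markers that the single cells, gated as Ngn3-low as well, carried at a small fraction of the bulk level. Epcam had 10 CPM or more in 220 of all 221 single cells, and whether cells were chosen beyond the gate was not tested.

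**Figure D5:**
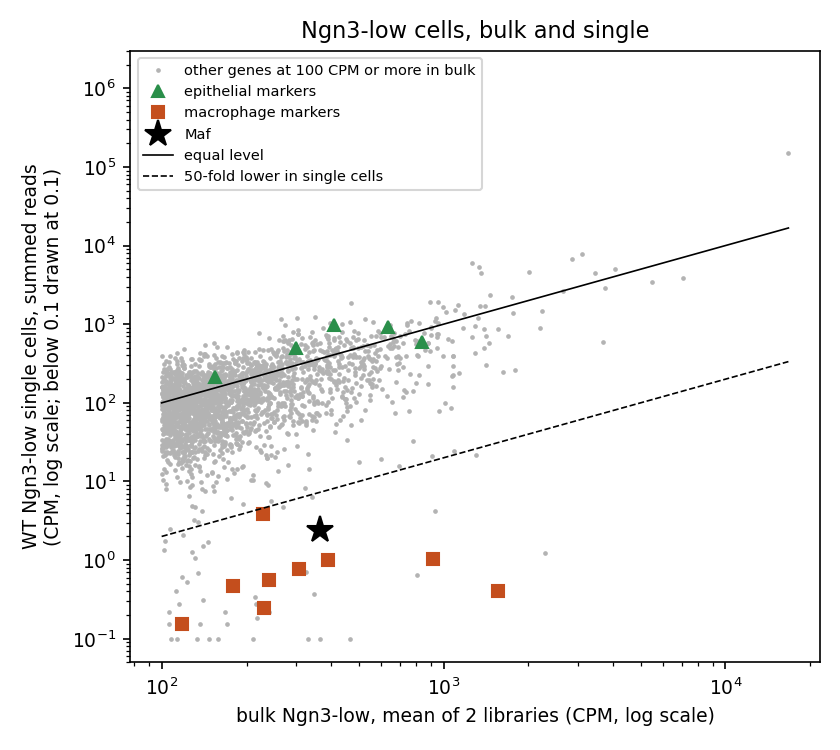
Level in WT Ngn3-low single cells against the mean level of the 2 bulk Ngn3-low libraries, both in CPM on log scales, for the 2308 genes with 100 CPM or more in bulk, with levels below 0.1 CPM in single cells drawn at 0.1. Maf and 9 macrophage markers lie below the dashed line of a 50-fold gap, and 5 epithelial markers lie near the solid line of equal level.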

How the data were processed

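RNA of 6 bulk libraries and 221 single cells was used, and the other libraries of the series are not analysed here. The authors deposited whole read counts per gene for bulk libraries and single cells, and RPKM with 1 value per bulk group, per the file headers. Per the submitters' processing notes, HTSeq 0.6.0 and TopHat2 2.1.0 were among the tools, as were DESeq 1.20.0 and Bowtie2, with mm10 as build, and no role is given for each. The strand setting of counting is not given in the sources used here. Of 40916 rows, 92 spike-in rows were left out. For the bulk libraries the quasi-likelihood test of edgeR 4.0.16 was run in R 4.3.3 on the counts (TMM factors, filterByExpr, all 6 libraries, Benjamini-Hochberg over 15684 genes, threshold 0.05). The SE is the size of the log2 fold change divided by the square root of F. The step was tested on simulated data. Alternatives were DESeq2 1.42.0, other scalings, no filter, only the 4 libraries compared, the replicate block and leaving out each library. For single cells, reads were summed per group, with exact Poisson and Clopper-Pearson intervals at 95%, which cover counting error only. All 221 cells passed a minimum of 100000 reads, and no doublet caller was run. The members and gene lists were chosen with earlier results of these data known, and some listed genes are not reported here. Named genes were Mafa, Maf, their family and partners, up to 4 members per list and comparison with the largest called change, 4 macrophage genes and the 5 genes most like each factor. Leaving out the cell with the most reads and the comparison of all genes between bulk and single cells were chosen after seeing the data.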

Additional observations from a re-analysis of the deposited data

How the results depend on the processing

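With 2 libraries per group, every log2 fold change of Mafa and the falls of Maf kept their direction and their call under all alternatives. Leaving out 1 library at a time, the log2 fold change of Maf in Ins1-RFP positive against Ngn3-high cells lay between 0.52 and 1.57, and lost its call without the second Ins1-RFP positive or either Ngn3-high library. Values that changed sign belonged to genes that did not pass the test with all libraries, and the cause was not tested. In Ins1-RFP positive against Ngn3-high cells these were Maff (-0.052 with total counts, -0.40 to 0.36 without 1 library), Neurod1 (-0.072 with total counts, -0.14 to 0.19 without 1 library), Nfe2 (-5.41 to 0.18), Nkx6-1 (-0.053 to 0.66), Onecut1 (-0.38 to 0.71) and Gcg (-0.38 to 0.66), and against Ngn3-low cells Maff (-0.12 to 0.65). Of these, some passed edgeR's test when 1 library was left out, namely Gcg at 0.66 without the first Ins1-RFP positive library (adjusted p = 0.0146), and Nfe2 at -5.41 (adjusted p = 0.0288, with no read left in the Ins1-RFP positive group) and Maff against Ngn3-low cells at 0.65 (adjusted p = 0.00892) without the second.

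Whether the libraries' replicate numbers pair samples is not labelled, and correlations of same-numbered deviations were low, between 0.030 and 0.093. With the replicate number as a block, Mafa had log2 fold changes of 3.72 in Ngn3-high against Ngn3-low, 5.35 in Ins1-RFP positive against Ngn3-high and 9.07 in Ins1-RFP positive against Ngn3-low cells, and Maf had -6.85, 1.09 and -5.76. The block called 9367, 8171 and 10564 genes in these comparisons, where the fit without it called 9078, 7990 and 10348.

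Single-cell levels of Maf moved more. Without the cell with the most reads they were 0.413 CPM in deleted Ngn3-high, 0.274 CPM in deleted Ngn3-low and 1.38 CPM in WT Ngn3-low cells. In WT Ngn3-low cells the mean over cells was 3.07 CPM, and over the title numbers shared with deleted cells the level was 1.07 CPM and 0% of cells had 10 CPM or more. Cells with at least 1 read made up 15.9% of deleted and 22.03% of WT Ngn3-high cells, and 17.4% of deleted and 38.8% of WT Ngn3-low cells. After thinning to 300000 reads per cell they made up 5 of 44 deleted (11.4%) and 6 of 59 WT (10.2%) Ngn3-high cells. These counts are too few to order the genotypes. In Ngn3-low cells they made up 11.6% of deleted and 24.5% of WT cells after thinning.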

Other observations

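Nrl, the large Maf factor of rod photoreceptors, had 40 reads in deleted Ngn3-high and 4 reads in WT Ngn3-high cells, and 0 reads in both groups of Ngn3-low cells. The reads of deleted Ngn3-high cells lay in 4 of 44 cells. The small Maf gene Mafg stood at 33.5 CPM in deleted and 34.7 CPM in WT Ngn3-high cells. In Ngn3-low cells it stood at 17.4 CPM in deleted and 24.5 CPM in WT cells. Each group is 1 sample, so these are values with no test.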
